A study of Homo sapiens with 9 samples.

Results

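The genes described here are those whose mean level moved one way in MDA-MB-231 cells exposed to YM-155 for 8 h and the other way in cells exposed for 20 h, each time against the same untreated cells. They were chosen on measured values. For each gene named by 1 symbol, the brightest probe set on the array was taken, its mean over the 9 arrays had to be above 3.9 on the log2 scale, and its group mean had to differ from the control mean by at least 0.3 in both treated groups with opposite signs. Of 22109 genes, 11031 were above 3.9 and 159 met the rule. In 73 of them the level was higher than control at 8 h and lower at 20 h, and in 86 it was lower at 8 h and higher at 20 h. Because the rule used both comparisons with control, the 8 h and 20 h changes of these genes, and the difference between 20 h and 8 h, are given as a description.

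MDA-MB-231 is an established human breast cancer line, taken from a pleural effusion. The control group was labelled as untreated. The 8 h group received YM-155 in gradual increments that added up to 83 ng/ml, and at harvest the cells were still attached with no obvious cell death. The 20 h group was kept at 14.6 ng/ml, which the labels call the LC50. Each group had 3 arrays, described as triplicates. Stock YM-155 was dissolved in DMSO and diluted in a salt solution, and the labels give no vehicle or incubation time for the untreated cells. Time, total dose and dosing schedule all differ between the treated groups, so their effects cannot be told apart. The labels do not say that the triplicates were separate cultures, so the p-values below reflect the spread among these arrays alone, and that spread may be technical.

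YM-155, or sepantronium bromide, is a small molecule first described as a suppressor of survivin, an inhibitor of apoptosis that also acts in mitosis. Cells exposed to a toxic agent pass through stages: early signalling and stress transcripts, slower shifts in cell cycle and repair genes, and changes in RNA stability. A transcript that is above the control level at one stage and below it at another is hidden when the exposures are averaged. Several genes of this kind have close relatives or partners with related functions, and the array measures many of these separately.

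All values are log2 RMA levels, so a difference of 1 is a 2-fold change, and levels of different probe sets cannot be ranked against each other. The median level of the genes on each array lay between 3.83 and 3.92. RMA usually scales the arrays to one another, so these medians cannot show whether an array was brighter or dimmer before that step. Control replicate 3 lay farther from control replicates 1 and 2 (SD of the gene-wise difference 0.312 and 0.313) than these lay from each other (0.186), and the closest arrays of a group were 8 h replicates 1 and 2 (0.147). Of the markers of the line, VIM was at 8.57 ± 0.16 and CD44 at 9.06 ± 0.03 (SD, n = 3) in the controls, both above 3.9, and the hormone receptors ESR1 and PGR were below it at 2.77 ± 0.16 and 2.04 ± 0.04. The epithelial markers EPCAM and CDH1 were above it, at 6.16 ± 0.06 and 4.40 ± 0.15, and ERBB2 was not analysed here. Of 11 leukocyte markers none had a 9-array mean above 3.9, but 4 were called higher at 20 h, and the sum of the 11 linear levels ranged from 79.4 to 86.1 in the controls, from 84.8 to 92.8 at 8 h and from 96.0 to 112.4 at 20 h. Of 8 fibroblast and endothelial markers 2 were above 3.9, and their summed level ran from 90.3 to 98.8, 84.2 to 89.1 and 79.9 to 88.4. The part of other cells in the results below was not tested.

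The changes were mostly modest. Among the 73 genes that were higher at 8 h and lower at 20 h, the 8 h change ran from 0.30 to 1.38 with a median of 0.41, and the 20 h change from -1.61 to -0.30 with a median of -0.51. Among the 86 genes with the opposite course, the 8 h change ran from -1.16 to -0.30 with a median of -0.39, and the 20 h change from 0.31 to 3.18 with a median of 0.54. Over all genes above 3.9 the median changes were -0.04 at 8 h and -0.06 at 20 h. Both changes were at least 0.5 in size in 12 and 16 genes of the respective directions, and in none were both at least 1. The 20 h change was the larger in 44 of the 73 and in 63 of the 86.

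**Figure D1:**
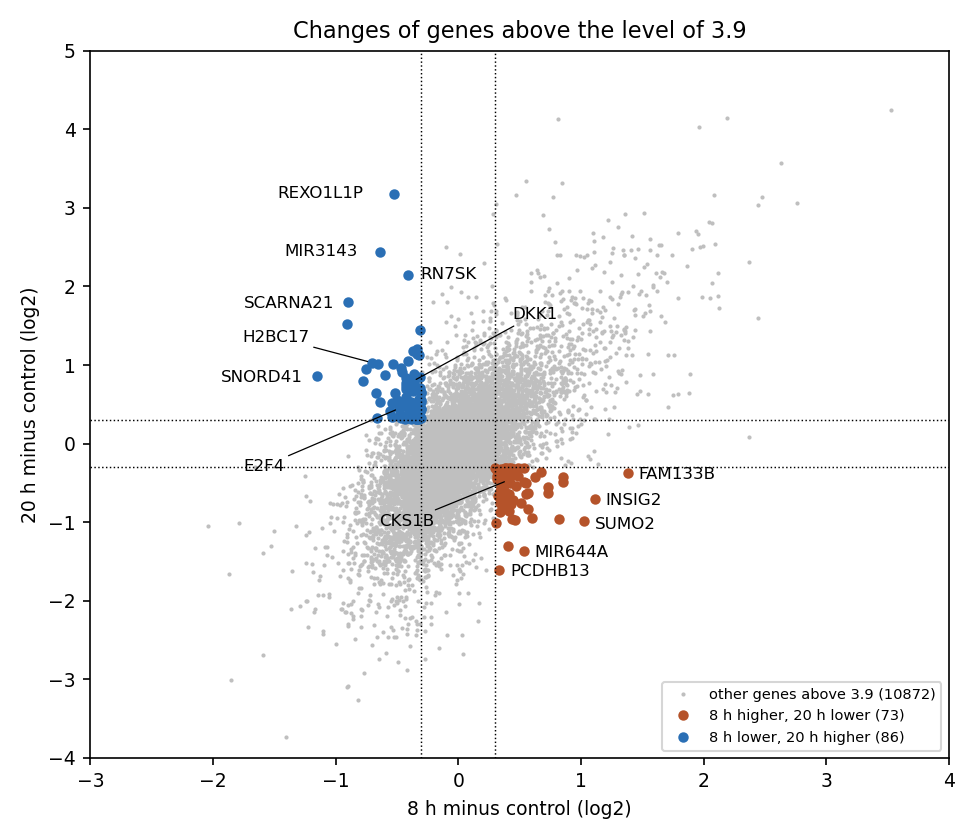
Change from control at 8 h (horizontal, log2) and at 20 h (vertical, log2) for the 11031 genes above 3.9, with dotted lines at 0.3 and -0.3. The 73 genes that were higher at 8 h and lower at 20 h lie at the lower right and the 86 with the opposite course at the upper left, where REXO1L1P reaches 3.18 at 20 h.

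Many of the changes were small against the spread. In limma, with p-values adjusted over all 22109 genes, 61 of the 159 were called at an adjusted p under 0.05 at 8 h, 109 at 20 h and 55 in both, and 158 differed between 20 h and 8 h. These counts follow from the choice of genes and nothing is read from them; over all genes 12.2% were called at 8 h (5.93% higher, 6.28% lower), 30.3% at 20 h (13.1% higher, 17.2% lower), 22.6% between 20 h and 8 h, and 0.299% in both comparisons with opposite signs (0.562% of genes above 3.9). Of the 73 genes, 27 were called in both comparisons and 19 in neither; of the 86, 28 and 25. The 8 h calls fell to 39 without control replicate 1, to 33 without control replicate 3, to 36 without 8 h replicate 2 and to 28 without 8 h replicate 3. The calls in both fell to 27 without control replicate 1, 34 without control replicate 2, 29 without control replicate 3, 32 without 8 h replicate 2 and 25 without 8 h replicate 3. In every fit that was tried, 17 genes kept both calls. Among those higher at 8 h they were CKS1B, EGLN1, INSIG2, POFUT4, DENRP2, LINC00842, RUNX1-IT1 and SNORD56B. Among those lower at 8 h they were IFITM2, NBDY, PDCL3P4, RRP9, SLC14A1, SMIM26, SNORA65, SNORD41 and SNORD69. These calls too rest on the comparisons that chose the genes, and the same count over all genes is not given.

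All 3 control arrays lay between the 8 h arrays and the 20 h arrays in 52 of the 73 genes and in 50 of the 86, a pattern found in 1.74% of all genes and in 2.96% of those above 3.9. A gene separated in this way was not always called. Examples are ZNF506 at 8 h (adjusted p = 0.392) and UBE2S at 8 h and 20 h (adjusted p = 0.101 and 0.0570). In the first direction the array medians, relative to the control mean, were 0.04, 0.05 and -0.12 on the controls, 0.31, 0.41 and 0.56 at 8 h and -0.51, -0.52 and -0.56 at 20 h. In the second they were -0.09, -0.07 and 0.19 on the controls, -0.34, -0.36 and -0.58 at 8 h and 0.55, 0.63 and 0.53 at 20 h. Control replicate 3 was therefore on the 20 h side of the other controls in both directions, being the lowest control in 50 of the 73 genes and the highest in 69 of the 86. The 8 h array farthest from the control mean was replicate 3 in 51 of the 73 and in 58 of the 86. Without control replicate 3, 124 genes met the rule, 96 of them among the 159, and without 8 h replicate 3, 108 genes met it, 101 of them among the 159. The 86 genes lower at 8 h numbered 56 without control replicate 3 and 54 without 8 h replicate 3. The rule was met without any 1 of the 9 arrays, each left out in turn, by 53 genes, 26 and 27 of the respective directions.

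**Figure D2:**
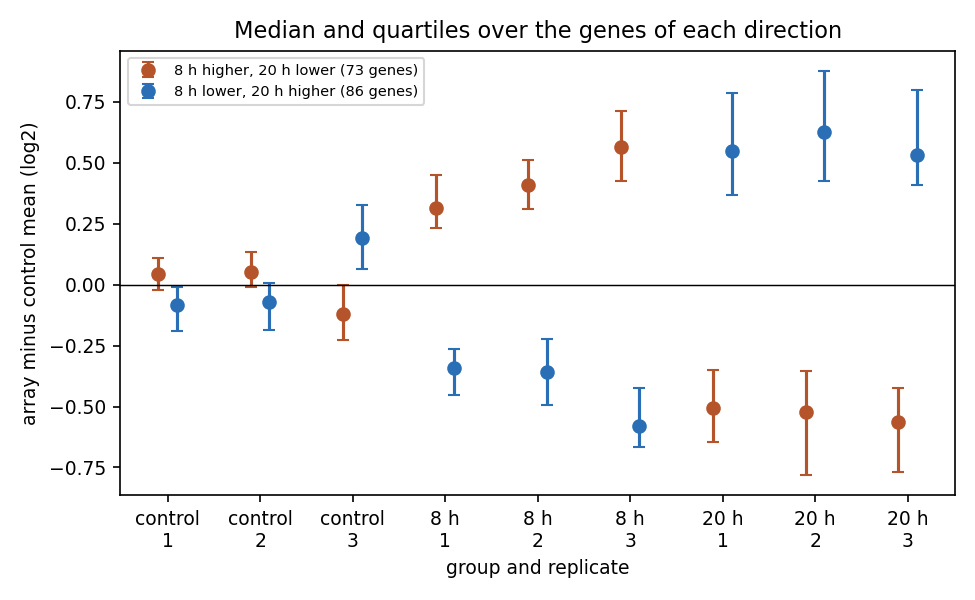
Median (points) and quartiles (bars) of the array value minus the control mean (log2) over the 73 genes higher at 8 h and the 86 genes lower at 8 h, for each of the 9 arrays. Control replicate 3 sits at -0.12 and 0.19, toward the 20 h arrays, and 8 h replicate 3 at 0.56 and -0.58, farthest from the controls among the 8 h arrays.

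CKS1B, one of the cell cycle genes of the set, encodes the small subunit that binds cyclin-dependent kinases and helps the SCF-SKP2 ubiquitin ligase recognise the inhibitor p27. Its level was 6.80, 6.85 and 6.82 on the controls, 7.20, 7.24 and 7.25 at 8 h and 6.27, 6.46 and 6.34 at 20 h. The 3 groups did not overlap, and the changes were 0.41 ± 0.08 and -0.47 ± 0.08 (limma SE, n = 3 per group here and below). Its paralog CKS2 took another course and rose in both comparisons, by 0.57 ± 0.08 at 8 h (adjusted p = 0.00107) and 0.88 ± 0.08 at 20 h (adjusted p = 1.34e-05). The adaptor SKP1 also rose in both, by 1.07 and 1.02 (adjusted p = 0.00129 and 0.000424), while SKP2, the subunit that CKS1B assists, fell by 1.17 and 2.10 (adjusted p = 3.91e-05 and 1.84e-07). At 20 h CKS1B was below and CKS2 above control, although both were above it at 8 h. Of 31 measured cyclin-dependent kinases, partners and inhibitors, 7 rose and 5 fell at 8 h, and 7 rose and 14 fell at 20 h, with median changes of -0.10 and -0.29; CKS1B was the 1 gene of that list in the set. None of 36 measured G1/S and replication genes was in it: 20 of these fell at 8 h and 35 at 20 h.

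The sequence upstream of CKS1B is shown because motifs of cell cycle promoters stand close to its start. The 150 bases before the annotated start (RefSeq, GRCh38.p14, chr1:154974531-154974680, plus strand) read as follows, with CCAAT boxes and the letters of a cell cycle homology region, TTTGAA, in capitals.
CKS1B: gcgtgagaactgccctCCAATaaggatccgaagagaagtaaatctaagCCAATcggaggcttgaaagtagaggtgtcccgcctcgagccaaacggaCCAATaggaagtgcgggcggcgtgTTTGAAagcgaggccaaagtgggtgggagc
The 3 CCAAT boxes begin 134, 102 and 54 bases before the start and TTTGAA begins 30 bases before it. The letters are a match of short words and no binding was measured.

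Other genes of DNA repair and the cell cycle were higher at 8 h and lower at 20 h by smaller margins or with more overlap. POLB, the DNA polymerase of base excision repair, was at 4.57, 4.70 and 4.72 on the controls, 5.29, 5.29 and 5.44 at 8 h and 4.27, 4.60 and 4.03 at 20 h, so the 8 h arrays were all above the controls and 1 array at 20 h lay among them. WRN, the helicase lost in Werner syndrome, changed by 0.49 ± 0.16 and -0.31 ± 0.16, and RADX, a single-strand binding protein at replication forks, by 0.35 ± 0.10 and -0.54 ± 0.10. RADX was separated from the controls in both groups, whereas WRN overlapped them at 20 h. SEPTIN7 and the formin DIAPH2, which act in the cytoskeleton during cell division, changed by 0.44 and 0.34 at 8 h and by -0.39 and -0.75 at 20 h.

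SUMO2 had the largest lesser change, that is the smaller in size of its 2 changes, in its direction. It encodes a ubiquitin-like protein that is attached to many nuclear proteins. Its levels were 9.43, 9.27 and 8.66 on the controls, 10.15, 9.94 and 10.35 at 8 h and 8.43, 8.34 and 7.64 at 20 h. The groups did not overlap, although control replicate 3 and 20 h replicate 3 were each well below the other arrays of their group, and the changes were 1.03 ± 0.24 and -0.98 ± 0.24. SUMO4, a close relative in sequence, changed by 0.61 ± 0.20 and -0.299 ± 0.20, just short of the rule, and SUMO3 by -0.23 ± 0.15 and -0.15 ± 0.15 (adjusted p = 0.425 and 0.525). SUMO genes have processed copies in the genome, and probes may not tell them apart, so the value of each is uncertain. The 4 ubiquitin pathway genes that shared the course of SUMO2 were the ligases FBXO11 (0.36 and -0.55), HERC3 (0.31 and -1.01) and ZNRF2 (0.39 and -0.63) and the deubiquitinase of histone H2A, MYSM1 (0.40 and -0.38).

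INSIG2 came next among protein-coding genes of that direction. INSIG proteins hold the sterol sensor SCAP in the endoplasmic reticulum and so restrain cholesterol synthesis. INSIG2 was at 7.24, 7.26 and 6.91 on the controls, 8.26, 8.16 and 8.33 at 8 h and 6.62, 6.38 and 6.28 at 20 h, with changes of 1.11 ± 0.12 and -0.71 ± 0.12 and no overlap. Its paralog INSIG1 rose by 1.56 at 8 h and 2.46 at 20 h (adjusted p = 8.91e-06 and 8.16e-08), and HMGCS1, an enzyme early in cholesterol synthesis, by 1.51 and 2.93 (adjusted p = 9.72e-06 and 7.40e-08). Of 18 measured cholesterol synthesis genes, 7 rose and 1 fell at 8 h and 13 rose and 2 fell at 20 h, with medians of 0.23 and 0.81. INSIG2 was the only 1 of them with the opposite courses of the rule, and it was 1 of the 2 that fell at 20 h. VLDLR, a receptor for triglyceride-rich lipoproteins, changed by 0.33 ± 0.09 and -0.41 ± 0.09 without overlap; it also belongs to a list of 24 ATF4 and stress response genes of which 10 rose and 1 fell at 8 h, and 15 rose and 2 fell at 20 h.

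ACER3 is an alkaline ceramidase, an enzyme that cleaves ceramide to sphingosine. It was at 5.63, 5.76 and 5.68 on the controls, 6.11, 5.86 and 6.23 at 8 h and 5.07, 5.12 and 5.05 at 20 h. The treated arrays lay on either side of the controls, with 8 h replicate 2 closest to them, and the changes were 0.38 ± 0.10 and -0.61 ± 0.10. The related ACER2 changed by 0.26 ± 0.12 and 0.29 ± 0.12, neither of which passed the test (adjusted p = 0.220 and 0.0941). Of 30 measured ceramide and sphingolipid genes, 6 rose and 2 fell at 8 h and 6 rose and 7 fell at 20 h, with medians of -0.04 and -0.09. SGMS2, a sphingomyelin synthase, rose by 1.36 and 1.44 (adjusted p = 1.61e-05 and 1.53e-06) and UGCG, which glucosylates ceramide, by 0.85 and 0.67 (adjusted p = 0.00193 and 0.00237). UGT8, which galactosylates it, fell by 0.61 and 1.50 (adjusted p = 0.000696 and 4.77e-07). CERS5, a ceramide synthase, fell by 1.13 at 20 h (adjusted p = 2.52e-05). ABCA5, a lipid transporter, shared the course of ACER3 (0.44 ± 0.14 and -0.72 ± 0.14).

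PRKAA2, a catalytic subunit of the energy sensor AMPK, was at 7.01, 6.95 and 6.79 on the controls, 7.25, 7.26 and 7.49 at 8 h and 6.47, 6.33 and 6.0 at 20 h. The other catalytic subunit, PRKAA1, changed by -0.20 ± 0.10 at 8 h (adjusted p = 0.265) and fell by 0.96 at 20 h (adjusted p = 4.52e-05). The 2 subunits therefore shared the direction at 20 h.

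EGLN1 encodes the prolyl hydroxylase that marks hypoxia-inducible factors for destruction when oxygen is present. Its arrays were tight, at 7.25, 7.18 and 7.32 on the controls, 7.78, 7.72 and 7.84 at 8 h and 6.77, 6.86 and 6.65 at 20 h. The changes were 0.53 ± 0.08 and -0.49 ± 0.08, and the groups did not overlap. EGLN3, which is also induced by hypoxia, rose by 0.45 at 8 h (adjusted p = 0.0179) and by 0.55 at 20 h (adjusted p = 0.00200), and its 8 h call was lost in some other fits, where the adjusted p reached 0.0683. Of 26 hypoxia and glycolysis genes, 15 rose at 8 h, and 12 rose and 3 fell at 20 h. The signs of EGLN1, counting changes of any size, were found in 11 of the 26, EGLN1 among them. ADM, a hypoxia-induced peptide, rose by 1.66 and 1.62 (adjusted p = 2.00e-05 and 3.19e-06). PDK1, which limits the entry of pyruvate into mitochondria, rose by 1.14 at 8 h (adjusted p = 9.28e-05) and changed by -0.26 ± 0.10 at 20 h (adjusted p = 0.0771), so it had the signs of EGLN1 without its 20 h size.

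**Figure D3:**
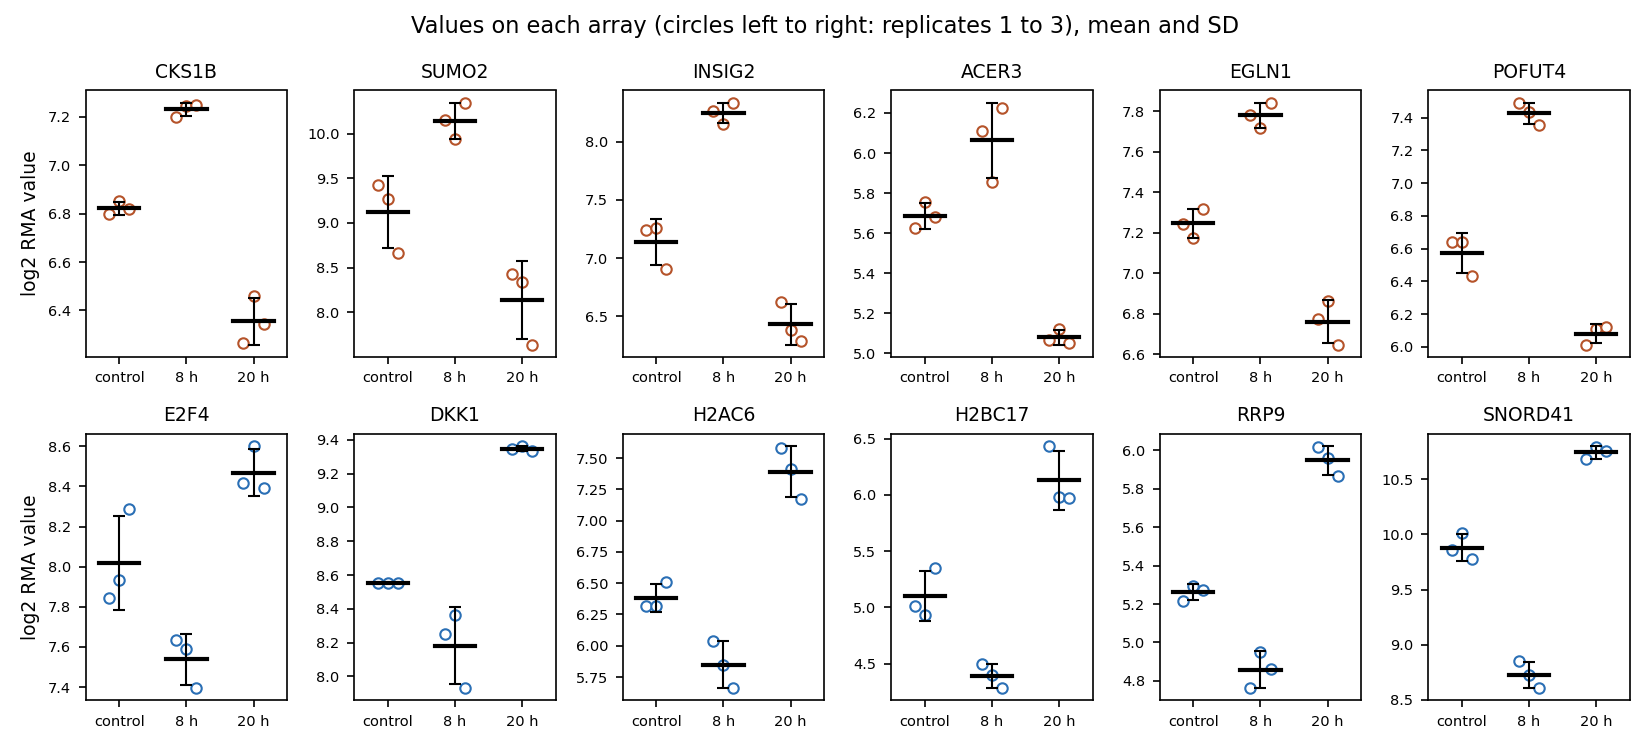
Log2 RMA level (vertical) on each of the 9 arrays for 6 genes that were higher at 8 h and lower at 20 h (top) and 6 with the opposite course (bottom); circles are arrays, the thick line is the group mean and the thin bar is 1 SD on each side. Each panel has its own vertical range, and in none of the 12 genes do the 3 groups overlap; DKK1 is at 8.56 on all 3 controls.

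Genes of the secretory pathway went both ways, with 5 of the 73 and 6 of the 86. This grouping was made after the values were seen, and its share among all genes above 3.9 was not counted. POFUT4, annotated as a protein fucosyltransferase, was at 6.64, 6.64 and 6.43 on the controls, 7.49, 7.43 and 7.36 at 8 h and 6.01, 6.11 and 6.12 at 20 h (0.85 ± 0.09 and -0.49 ± 0.09). SPCS2, a subunit of the signal peptidase, changed by 0.44 ± 0.14 and -0.96 ± 0.14, and TMEM165, a Golgi protein needed for glycosylation, by 0.43 ± 0.12 and -0.77 ± 0.12. Both were separated from the controls in each group. In the other direction, KDELR1, a receptor that returns proteins to the endoplasmic reticulum, changed by -0.32 ± 0.19 and 0.42 ± 0.19, and OST4, a subunit of the oligosaccharyltransferase, by -0.39 ± 0.19 and 0.53 ± 0.19. Among genes with the course of POFUT4, OLFML2A, a secreted matrix protein, changed by 0.47 and -0.53, and TAS2R19, a bitter taste receptor gene, by 0.47 and -0.97. PCDHB13, a protocadherin of cell adhesion, had the lowest 20 h change of the set at -1.61 ± 0.25, from 5.11, 5.28 and 4.99 on the controls to 3.50, 4.04 and 3.01, but its 8 h values of 5.25, 5.24 and 5.90 overlapped the controls. The atypical cadherin FAT4 was at 7.58, 7.60 and 6.64 on the controls and 7.49, 7.46 and 7.82 at 8 h, and its control replicate 3 was below all 20 h arrays.

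FAM133B, a gene of little known function, had the largest 8 h increase. It was at 4.45, 4.45 and 4.14 on the controls, 5.52, 5.78 and 5.89 at 8 h and 3.83, 4.21 and 3.87 at 20 h. The 8 h arrays were far above the controls (1.38 ± 0.14), while at 20 h 1 array lay above control replicate 3 (-0.37 ± 0.14). Among DNA-binding genes, ZNF292 changed by 0.63 ± 0.15 and -0.42 ± 0.15 and ZNF506 by 0.42 ± 0.26 and -0.86 ± 0.26. Both were separated from the controls in each group, but ZNF506 was not called at 8 h (adjusted p = 0.392) nor ZNF292 at 20 h (adjusted p = 0.0588). ZNF430 changed by 0.42 ± 0.20 and -0.38 ± 0.20 with overlap in both groups. ZNF292, ZNF506 and ZNF430 were 3 of 476 measured numbered zinc finger genes, of which 307 were above 3.9. Of the 476, 20 rose and 75 fell at 8 h and 45 rose and 154 fell at 20 h. In innate immunity, the double-stranded RNA sensor TLR3 was at 4.12, 4.12 and 4.15 on the controls, 4.27, 4.62 and 4.69 at 8 h and 3.56, 3.51 and 3.11 at 20 h. MALT1, a protease of NF-kB signalling, was at 7.65, 7.52 and 7.50, then 7.86, 7.79 and 8.05 at 8 h and 6.81, 6.68 and 6.59 at 20 h. Neither gene's groups overlapped, but TLR3 was not called at 8 h (adjusted p = 0.0975).

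E2F4 was among the transcription factors with the opposite course. It is an E2F family member that works mainly as a repressor, together with the pocket proteins RBL1 and RBL2 (p107 and p130) in the DREAM complex of resting cells. Its level was 7.84, 7.93 and 8.29 on the controls, 7.63, 7.59 and 7.39 at 8 h and 8.42, 8.60 and 8.39 at 20 h. The groups did not overlap, but control replicate 3 stood just below the lowest 20 h array, and the changes were -0.48 ± 0.12 and 0.45 ± 0.12. Other members of the family differed from it. E2F6, also a repressor, rose by 0.59 at 8 h (adjusted p = 0.00140) and 0.38 at 20 h (adjusted p = 0.00594). E2F8 fell by 0.55 at 8 h (adjusted p = 0.0176, up to 0.0638 in other fits) and 2.01 at 20 h (adjusted p = 1.64e-06), and the activator E2F1 fell by 0.73 at 20 h (adjusted p = 0.0111). The pocket proteins RB1 and RBL1 fell at 20 h by 1.18 and 2.30 (adjusted p = 2.27e-05 and 8.97e-07), and their 8 h changes were -0.06 and -0.41 (adjusted p = 0.826 and 0.0724). RBL2 changed less, by -0.25 at 8 h (adjusted p = 0.0552) and -0.33 at 20 h (adjusted p = 0.00603, up to 0.0786 in other fits). Of the 13 measured E2F, dimerisation partner and pocket protein genes, 1 rose and 2 fell at 8 h, and 3 rose and 8 fell at 20 h, with medians of -0.20 and -0.50.

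Histone genes formed a group within the 86. Replication-dependent histone messages are made in S phase and mostly end in a stem-loop in place of a poly(A) tail. H2AC6 was at 6.32, 6.32 and 6.51 on the controls, 6.04, 5.85 and 5.66 at 8 h and 7.58, 7.41 and 7.17 at 20 h (-0.53 ± 0.13 and 1.01 ± 0.13). H2BC17 was at 5.01, 4.93 and 5.35, then 4.49, 4.40 and 4.28 at 8 h and 6.43, 5.98 and 5.98 at 20 h (-0.71 ± 0.15 and 1.03 ± 0.15). In both genes the 3 groups were apart. H2BC3 had smaller changes with overlap (-0.38 ± 0.19 and 0.44 ± 0.19), and H2AX, the variant phosphorylated at DNA breaks, changed by -0.51 ± 0.15 and 0.64 ± 0.15 without overlap. Of 28 measured replication-dependent histone genes, 8 fell at 8 h, and 12 rose and 6 fell at 20 h; 14 were above 3.9 and 3 of these met the rule. Others of the family went a single way: H2AC21 fell by 0.68 and 1.13 (adjusted p = 0.00281 and 2.56e-05), H2AC20 by 0.56 and 0.64 (adjusted p = 0.00964 and 0.00145), and H2BC14 changed by -1.53 and -1.30 (adjusted p = 0.00826 and 0.00709). H2BC5 rose by 1.29 at 20 h (adjusted p = 1.58e-05). Histone genes are alike in sequence and probes may read several copies, so the value of each gene is uncertain.

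The upstream sequences of H2AC6 and H2BC17 are shown because both held a pair of CCAAT boxes at similar distances. Each line gives the 150 bases before the annotated start (RefSeq, GRCh38.p14, plus strand), H2AC6 at chr6:26124022-26124171 and H2BC17 at chr6:27893275-27893424, with CCAAT on either strand and TATAAA in capitals.
H2AC6: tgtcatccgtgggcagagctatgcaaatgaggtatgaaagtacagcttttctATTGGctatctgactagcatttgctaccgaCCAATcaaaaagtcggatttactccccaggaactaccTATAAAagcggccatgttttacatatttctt
H2BC17: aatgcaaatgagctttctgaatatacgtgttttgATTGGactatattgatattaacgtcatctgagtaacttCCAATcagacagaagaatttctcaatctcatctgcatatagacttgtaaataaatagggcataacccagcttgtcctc
The boxes began 98 and 68 bases before the start in H2AC6 and 116 and 78 in H2BC17, and H2AC6 also held TATAAA from 31 bases before it.

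DKK1 encodes a secreted inhibitor of Wnt signalling that binds the LRP co-receptors. It was at 8.56 on all 3 controls, 8.25, 8.37 and 7.93 at 8 h and 9.34, 9.36 and 9.33 at 20 h. The 3 controls held the identical value of 8.55566 (SD 0.0), which gives no measure of their spread, and its cause was not tested. The 20 h arrays were within 0.1 of one another and the 8 h arrays were more spread (SD 0.23). The changes were -0.37 ± 0.11 and 0.79 ± 0.11. Of 41 measured Wnt antagonists, ligands, receptors and targets, 3 rose and 3 fell at 8 h, and 9 rose and 7 fell at 20 h, with medians of -0.06 and 0.12. FZD2, a Wnt receptor, fell by 0.94 and 0.56 (adjusted p = 0.000982 and 0.00579), and RNF43, a ligase that removes Wnt receptors, by 0.63 and 0.96 (adjusted p = 0.00162 and 2.49e-05). AXIN2, a feedback target of the pathway, rose by 0.51 at 20 h (adjusted p = 0.00353) with 0.19 ± 0.10 at 8 h (adjusted p = 0.313). The transcription factor TCF7L2 rose by 0.59 at 8 h (adjusted p = 0.0262, up to 0.0968 in other fits) and 0.79 at 20 h (adjusted p = 0.00200). DKK1 was the 1 gene of this list that met the rule, and 21 of the 41 were above 3.9.

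The upstream sequence of DKK1 (150 bases before the start, RefSeq, GRCh38.p14, chr10:52314131-52314280, plus strand) is shown with TTTGAA and TATAAA in capitals.
DKK1: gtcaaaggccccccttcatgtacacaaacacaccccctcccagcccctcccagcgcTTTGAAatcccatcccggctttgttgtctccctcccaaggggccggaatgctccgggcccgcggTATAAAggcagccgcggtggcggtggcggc
TATAAA began 30 bases before the start, nearly as in H2AC6.

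**Figure D4:**
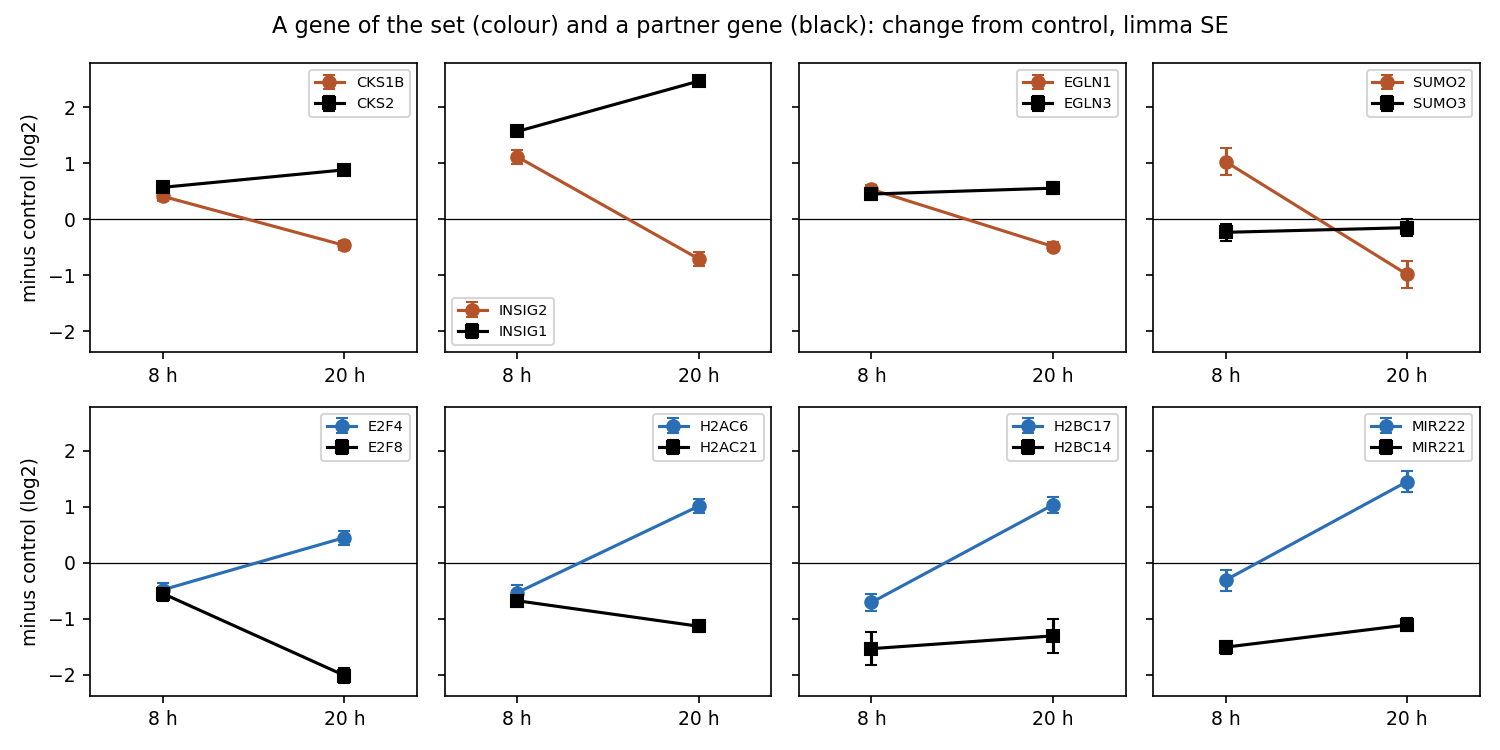
Change from control (log2, vertical) at 8 h and 20 h with the limma standard error for 8 genes of the set (coloured circles), each with a partner gene that did not meet the rule (black squares). INSIG1 reaches 2.46 at 20 h where INSIG2 is at -0.71, and MIR221 is at -1.11 where MIR222 is at 1.45.

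A group of ribosome production and mitochondrial gene expression, formed after the values were seen, held 8 of the 86 and none of the 73. How frequent such genes are among all genes above 3.9 was not counted, so nothing is read from this split. RRP9, a protein of the U3 small nucleolar particle, was at 5.21, 5.30 and 5.28 on the controls, 4.76, 4.95 and 4.86 at 8 h and 6.02, 5.96 and 5.87 at 20 h (-0.40 ± 0.08 and 0.69 ± 0.08). NOL6, a nucleolar protein of small subunit assembly, was at 6.90, 7.0 and 7.44, then 6.66, 6.72 and 6.57 at 8 h and 7.63, 7.72 and 7.58 at 20 h (-0.46 ± 0.13 and 0.53 ± 0.13). The groups of both genes were apart. RPS19, a small subunit protein mutated in Diamond-Blackfan anaemia, changed by -0.32 ± 0.12 and 0.57 ± 0.12, and was the 1 of 55 cytosolic ribosomal protein genes in the set; 9 of the 55 rose and 2 fell at 8 h, and 30 rose and 1 fell at 20 h. The other members of the group were SURF2, MRPL4, GADD45GIP1, CSKMT and POLRMT, the mitochondrial RNA polymerase (-0.46 ± 0.12 and 0.35 ± 0.12). CSKMT, a methyltransferase of mitochondrial citrate synthase, had the largest change among them (-0.59 ± 0.15 and 0.88 ± 0.15). MRPL4 was the 1 of 70 mitochondrial ribosomal protein genes in the set; 2 of the 70 rose and 11 fell at 8 h, and 5 rose and 32 fell at 20 h. MRPL4 overlapped the controls at 20 h because control replicate 3 was at 7.18 against 6.34 and 6.33 on the other controls. In the inner mitochondrial membrane, SMIM26 was at 5.76, 5.69 and 5.81, then 5.39, 5.37 and 5.23 at 8 h and 6.47, 6.48 and 6.40 at 20 h, and HIGD2A, SLC25A38 and TMEM11 changed by -0.54, -0.31 and -0.30 at 8 h and by 0.34, 0.43 and 0.44 at 20 h.

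Metallothioneins, small cysteine-rich proteins that bind zinc and copper, gave 2 genes of the set. MT1E was at 5.39, 5.05 and 4.99 on the controls, 4.50, 4.48 and 4.53 at 8 h and 5.39, 5.67 and 5.94 at 20 h, so that 20 h replicate 1 met control replicate 1 at 5.39 to 2 decimals. The pseudogene MT1CP changed by -0.30 ± 0.11 and 0.65 ± 0.11. MT1X rose by 1.22 at 20 h (adjusted p = 8.65e-06) with 0.13 ± 0.10 at 8 h (adjusted p = 0.492), and MT2A fell by 0.45 at 8 h (adjusted p = 0.0171, up to 0.0644 in other fits) with 0.16 ± 0.10 at 20 h (adjusted p = 0.278). The family shares much of its sequence, which limits what each probe set can tell apart.

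Of 12 genes grouped as secreted or immune after their values were seen, 10 were in the direction of the 86. The share of such genes among all genes above 3.9 was not counted, and nothing is read from this split. LCN2, which binds bacterial iron carriers, changed by -0.41 ± 0.15 and 1.06 ± 0.15, and WFDC2, a secreted protease inhibitor, by -0.41 ± 0.11 and 0.81 ± 0.11, both without overlap. The 8 h change of LCN2 was not called (adjusted p = 0.125). NFKBIZ, a nuclear regulator of NF-kB, was at 6.61, 6.70 and 7.09 on the controls, 6.28, 6.29 and 6.40 at 8 h and 7.19, 7.21 and 7.10 at 20 h, with control replicate 3 next to the 20 h arrays. CXCL2, a neutrophil chemokine, was at 3.65, 4.44 and 4.67, then 3.31, 3.85 and 4.41 at 8 h and 4.77, 4.89 and 4.61 at 20 h, and its groups overlapped. CXCL8, another neutrophil chemokine, rose by 2.05 and 2.82 (adjusted p = 0.000136 and 3.08e-06). Of 24 NF-kB targets and cytokines, 13 rose at 8 h and 18 at 20 h. The summed level of the leukocyte markers was also highest at 20 h, as given above, and its part in these values was not tested. ID3, an inhibitor of helix-loop-helix factors, changed by -0.39 ± 0.12 and 0.49 ± 0.12, while ID1 changed by -1.19 and -1.53 (adjusted p = 1.58e-05 and 4.52e-07). ID2 and ID4 rose at 20 h, by 1.28 and 1.30 (adjusted p = 1.74e-05 and 0.000532), and their 8 h changes were 0.29 and 0.09 (adjusted p = 0.149 and 0.843).

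Further genes lower at 8 h and higher at 20 h were spread over other functions. UBE2S, a ubiquitin-conjugating enzyme of the anaphase-promoting complex, changed by -0.39 ± 0.14 and 0.38 ± 0.14, and its arrays were apart. It was the 1 of 46 G2/M and mitosis genes in the set; 14 of these fell and 1 rose at 8 h, and 44 fell and 1 rose at 20 h. The gene that rose was PTTG1, the securin, at 0.73 and 0.78 (adjusted p = 0.00872 and 0.00214), and UBE2C, the enzyme that acts before UBE2S, fell by 0.98 at 20 h (adjusted p = 8.15e-06). SDF2L1, a protein of the endoplasmic reticulum folding machinery, was at 4.13, 3.77 and 4.14 on the controls, 3.64, 3.52 and 3.92 at 8 h and 5.37, 5.13 and 4.91 at 20 h; the 20 h arrays were all higher and the 8 h arrays overlapped the controls. LPCAT4, an enzyme of phospholipid remodelling, changed by -0.50 ± 0.17 and 0.55 ± 0.17, IER5L, a relative of an immediate early gene, by -0.47 ± 0.12 and 0.97 ± 0.12, and PPP1R18, an actin-binding partner of protein phosphatase 1, by -0.45 ± 0.13 and 0.47 ± 0.13.

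Small nucleolar RNAs guide chemical modification of ribosomal RNA, and the related Cajal body RNAs that of spliceosomal RNA; most are cut from the introns of longer genes. Of 238 measured genes of the class, 131 were above 3.9, and 12 of these were lower at 8 h and higher at 20 h while 1 had the opposite course. In the annotation, genes typed as small nucleolar RNA made up 1.03% of all genes above 3.9, 10.5% of the 86 (9 genes) and 1.37% of the 73 (1 gene). Over the class of 238, 50 rose and 9 fell at 8 h, and 104 rose and 4 fell at 20 h, with medians of 0.11 and 0.28. The 12 genes thus shared the more frequent direction of the class at 20 h, but not at 8 h.

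SNORD41 had the lowest 8 h change of the 159. It was at 9.86, 10.01 and 9.77 on the controls, 8.85, 8.72 and 8.61 at 8 h and 10.68, 10.79 and 10.76 at 20 h (-1.16 ± 0.09 and 0.86 ± 0.09), and the groups were far apart. SCARNA21 was at 5.58, 5.28 and 6.27, then 4.70, 5.18 and 4.56 at 8 h and 7.45, 7.73 and 7.37 at 20 h (-0.90 ± 0.24 and 1.80 ± 0.24). SCARNA20 had similar changes of -0.91 ± 0.24 and 1.52 ± 0.24. In both Cajal body RNAs control replicate 3 was the highest control. SNORA65 was at 8.91, 9.34 and 9.18, then 8.56, 8.63 and 8.27 at 8 h and 10.13, 10.15 and 10.20 at 20 h, and SNORD69 at 9.95, 10.03 and 10.12, then 9.67, 9.65 and 9.49 at 8 h and 10.77, 10.83 and 10.80 at 20 h. SNORD56B, the exception, was at 4.54, 5.08 and 4.44 on the controls, 5.65, 5.47 and 5.41 at 8 h and 3.55, 3.87 and 3.76 at 20 h.

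Each of the 13 lies within the span of a longer gene in the GRCh38.p14 annotation (strands were not compared), and 11 of these longer genes were measured. None of the 11 met the rule. In 5 both changes were under 0.3 in size, and in 7 the 20 h change had the sign opposite to that of the small RNA. Some of these 7 changes were near 0, as in TSR1 with SNORD91B (-0.03, adjusted p = 0.853). At 20 h, 3 of the 11 were called lower and 1 higher. CHD3, a chromatin remodeller that contains SCARNA21, fell by 0.33 at 8 h (adjusted p = 0.0332, up to 0.108 in other fits) and by 0.39 at 20 h (adjusted p = 0.00570). NSD2, a histone methyltransferase gene with SCARNA22, fell by 1.26 at 20 h (adjusted p = 9.34e-07), and CWF19L1 with SNORA12 by 0.88 (adjusted p = 9.72e-05). RPL12, the ribosomal protein gene with SNORA65, changed by 0.34 and 0.20 (adjusted p = 0.0692 and 0.201), and TNPO2 with SNORD41 by -0.27 and -0.05 (adjusted p = 0.0822 and 0.748). SIPA1L1 with SNORD56B rose by 0.54 at 8 h (adjusted p = 0.00288) and by 0.25 at 20 h (adjusted p = 0.0497, up to 0.152 in other fits). The long non-coding gene LOC145474, next to SNORD56B in the annotation, was also in the set (0.51 ± 0.18 and -0.75 ± 0.18), and they were the only pair of neighbours among measured genes of the set.

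**Figure D5:**
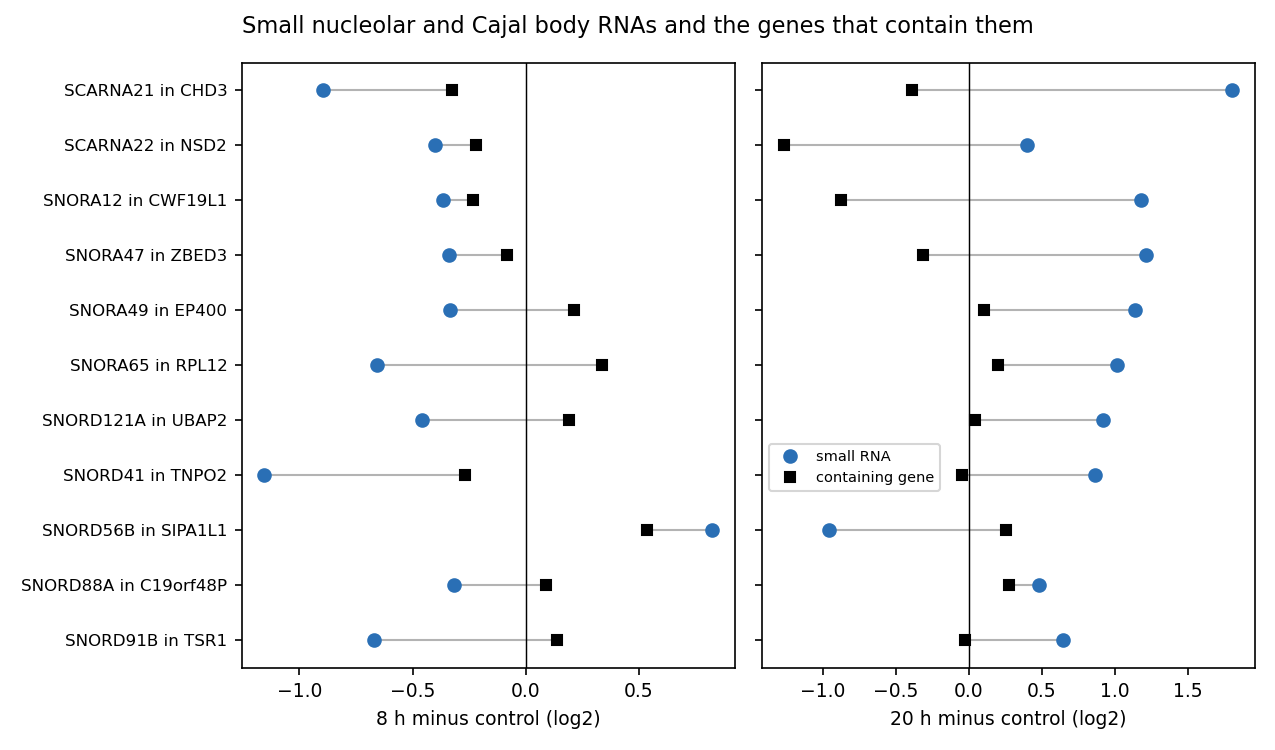
Change from control (log2, horizontal) at 8 h (left) and 20 h (right) for 11 small nucleolar and Cajal body RNAs of the set (blue circles) and the longer gene whose span holds each (black squares). The 2 lie apart in most pairs, as for SCARNA21 at 1.80 and CHD3 at -0.39 at 20 h.

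RN7SK, the RNA that holds the elongation factor P-TEFb inactive, was at 9.22, 9.44 and 9.56 on the controls, 9.11, 9.16 and 8.73 at 8 h and 11.49, 11.59 and 11.59 at 20 h. The 20 h arrays were far above the rest (2.15 ± 0.13), and the 8 h arrays were just below the controls (-0.41 ± 0.13). HEXIM1, the protein that inhibits P-TEFb together with it, rose by 0.59 at 20 h (adjusted p = 0.00402) with -0.13 ± 0.12 at 8 h (adjusted p = 0.606). Of the P-TEFb subunits, CDK9 fell by 0.46 at 8 h (adjusted p = 0.0105), CCNT1 fell by 0.44 at 20 h (adjusted p = 0.00518), and CCNT2 rose by 0.54 and 0.59 (adjusted p = 0.00451 and 0.000853). Of the 447 measured loci annotated as 5S ribosomal RNA, 71 were above 3.9, and 4 of these were in the set. RN5S129, RN5S345 and RN5S33 were higher at 8 h and RN5S415 lower. Such loci are near-identical and their separate values are uncertain. RNU7-72P, a copy of the U7 RNA that processes histone messages, changed by 0.38 ± 0.17 and -0.69 ± 0.17, with overlap at 8 h.

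The array's probe sets for microRNA genes read the precursor or its host transcript as well as any mature form, so the values are not levels of mature microRNA. Of 1043 measured microRNA genes, 230 were above 3.9, and 7 of these were higher at 8 h and lower at 20 h and 4 the reverse. MIR222 was at 6.29, 5.90 and 6.59 on the controls, 5.69, 5.85 and 6.32 at 8 h and 7.67, 7.67 and 7.78 at 20 h; it was higher on every 20 h array (1.45 ± 0.19) and overlapped the controls at 8 h (-0.31 ± 0.19). MIR221, its neighbour in the same cluster, fell in both comparisons, by 1.50 and 1.11 (adjusted p = 4.30e-05 and 4.64e-05). Their mature sequences are shown because they share a seed, bases 2 to 8, in capitals (RefSeq, GRCh38.p14, minus strand, chrX:45747036-45747056 for miR-222-3p and chrX:45746180-45746202 for miR-221-3p).
miR-222-3p: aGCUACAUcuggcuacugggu
miR-221-3p: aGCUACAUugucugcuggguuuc
MIR3143 was at 6.64, 6.71 and 7.03 on the controls, 6.40, 5.76 and 6.31 at 8 h and 9.39, 9.16 and 9.16 at 20 h (-0.64 ± 0.17 and 2.44 ± 0.17), and the groups were apart.

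Among microRNA genes with the other course, MIR644A had the lowest 20 h change. It was at 6.26, 6.33 and 6.02 on the controls, 6.65, 6.66 and 6.91 at 8 h and 4.64, 5.07 and 4.81 at 20 h (0.54 ± 0.13 and -1.36 ± 0.13). It lies within ITCH, a ubiquitin ligase gene that changed by 0.09 and -0.12 (adjusted p = 0.652 and 0.392). MIR3122 was at 4.09, 4.23 and 3.97, then 4.60, 4.59 and 4.91 at 8 h and 3.51, 2.89 and 3.06 at 20 h. It lies within DTL, a gene in the control of DNA replication. DTL changed by -0.15 at 8 h (adjusted p = 0.261) and fell by 1.55 at 20 h (adjusted p = 3.84e-07). MIR1206 changed by 0.73 ± 0.17 and -0.55 ± 0.17 and lies within PVT1, which rose by 0.47 and 0.71 (adjusted p = 0.0278, up to 0.104 in other fits, and 0.000982). MIR3671, within the kinase gene JAK1 (0.19 and 0.03, adjusted p = 0.153 and 0.836), was at 5.61, 5.66 and 5.17, then 5.72, 6.31 and 6.11 at 8 h and 4.57, 4.58 and 4.82 at 20 h. The mature forms of miR-644a and miR-3122 have different seeds (chr20:34466385-34466403 and chr1:212077622-212077643, plus strand).
miR-644a: aGUGUGGCuuucuuagagc
miR-3122: gUUGGGACaagaggacggucuu

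Long non-coding genes were found in the first direction: 6 of the 73 and 0 of the 86 were typed as such in the annotation, against 3.25% of genes above 3.9. LINC00842 was at 4.88, 4.93 and 5.02 on the controls, 5.70, 5.92 and 5.77 at 8 h and 4.58, 4.49 and 4.50 at 20 h. RUNX1-IT1, an intronic transcript of RUNX1, was at 6.37, 6.45 and 6.45, then 6.79, 7.0 and 7.14 at 8 h and 5.84, 5.71 and 5.78 at 20 h. The groups of both were apart. Pseudogenes with clear changes were DENRP2 (0.74 ± 0.13 and -0.63 ± 0.13) and PDCL3P4 (-0.78 ± 0.13 and 0.80 ± 0.13), which resemble the coding genes DENR and PDCL3 and may be read through them. REXO1L1P had the largest 20 h change. It was at 3.47, 3.25 and 4.25 on the controls and 3.28, 3.09 and 3.04 at 8 h. At 20 h it was at 6.64, 6.92 and 6.95, and its 8 h difference was carried by control replicate 3. REXO1L1P and FOXJ1 were the 2 genes of the set with a control mean at or under 3.9, and passed 3.9 only through their 20 h arrays. The same held for other genes near 3.9, among them SDF2L1 (group means 4.01 on the controls, 3.69 at 8 h and 5.14 at 20 h) and TYW1B (3.99, 3.56 and 4.72). Through their 8 h arrays alone passed, among others, TLR3 (4.13, 4.53 and 3.39) and MIR3122 (4.09, 4.70 and 3.15).

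Promoter sequence gave a property that the rule did not use. The table held promoters, from 250 bases before to 50 after the start, for 97 of the 159 genes, 57 promoters of 44 genes higher at 8 h and 62 of 53 genes lower at 8 h. TTTGAA on either strand was in 12 of the 57 (21.1%) and 5 of the 62 (8.07%), against 10.5% of promoters of genes above 3.9 and 15.2% of all. TATAAA was in 10.5% and 17.7%, against 6.26% and 11.5%. The GC box GGGCGG was in 68.4% and 71.0%, against 66.5% and 45.0%, and CCAAT in 38.6% and 40.3%, against 35.3% and 34.6%. E2F words were rare: TTCCCGC was in 7.02% and 4.84%, against 9.75% of promoters of genes above 3.9. The median GC content was 64.7% and 65.0%, against 65.0% for genes above 3.9. These shares rest on few promoters, genes with several starts count more than once, and no test was made.

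Where a gene had more than 1 probe set, the others could be compared. The set held 6 such genes with 23 further probe sets, of which 8 had the same pair of signs and 0 reached 0.3 in both changes. In UIMC1, which recruits BRCA1 complexes to DNA breaks, the brightest probe set changed by -0.75 ± 0.18 and 0.96 ± 0.18, and the other by 0.27 and 0.47. In PPP1R18 all 7 others had the same signs, with 8 h changes from -0.27 to -0.18. In C6orf47, C10orf12 and REXO1L1P the others changed differently, and in ZBTB9 the other probe set had the same signs (-0.38 and 0.11).

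The border of the set was narrow. Just inside were PALS1 (0.30 and -0.31) and RP2 (0.38 and -0.30) in the first direction and DRAP1 (-0.30 and 0.56) and CIAO2B (-0.30 and 0.52) in the second. Just outside, with a change under 0.3 before rounding, were SUMO4 (0.61 and -0.299), G2E3 (0.44 and -0.30), SH3BGRL3 (-0.30 and 0.73) and RPS28 (-0.32 and 0.299). With the values normalised by quantiles again, the split of 73 and 86 became 52 and 95, and with each array centred on its median 86 and 70.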

How the data were processed

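RNA of 9 samples was read on Affymetrix whole-transcript arrays. Per the labels and the submitters' processing notes, the authors summarised the arrays by RMA (Affymetrix Expression Console); the deposited values are log2, 1 per array for 53617 probe sets. Versions and the genome build are not given in the sources used here. Of these probe sets, 25713 were in the platform's gene table, 23558 with 1 symbol and 2155 with several; the brightest probe set per symbol gave 22109 genes, of which 618 had several. Gene identifiers matched the reference annotation for 20891. No further normalization was applied.

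All 9 arrays entered a fit of 3 group means in limma 3.58.1 (R 4.3.3, lmFit and eBayes, 6 residual and 4.01 prior degrees of freedom), with two-sided tests and Benjamini-Hochberg adjustment over the 22109 genes; "rose" and "fell" mean an adjusted p under 0.05. The fit was tested on simulated data. An array gives no count depth, and the number of arrays limits the precision. Both comparisons with control share the control arrays.

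The genes and lists were chosen with earlier results of these data known. The genes named were 4 examples of the rule (CKS1B, E2F4, DKK1, ACER3), the 12 in each direction with the largest lesser change among those separated from the controls (unnamed loci, open reading frames, antisense, non-coding and small RNAs left out), those at the border and up to 4 per gene list; the other genes named, the functional grouping, the partner genes and the sequences shown were chosen after their values were seen. Alternatives changed the probe set rule, scaling, variance model, filter, thresholds and arrays used. Promoters and microRNAs came from RefSeq tables of GRCh38.p14; 10 of 11 microRNA genes matched.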

Additional observations from a re-analysis of the deposited data

Results flagged for a closer look

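In 102 of the 159 genes every 8 h array lay on one side and every 20 h array on the other side of all 3 control arrays. The rule that chose the genes fixes the opposite directions of the group means, so the difference was not tested. The pattern was found in 1.74% of all genes and in 2.96% of those above 3.9.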

How the results depend on the processing

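The number of genes that met the rule was 159 (73 higher and 86 lower at 8 h) and depended most on the threshold: at 0.2 it was 419 (220 and 199) and at 0.5 it was 28 (12 and 16). Without a filter on the mean it was 196, with a mean above 5 it was 116, with group medians 144 and with a gene's probe sets averaged 154. Leaving out 1 array at a time gave 108 to 198 genes, 54 to 97 of them higher and 54 to 111 lower at 8 h. Of the 159 genes, calls in single-array omissions ran from 28 to 56 at 8 h, 87 to 133 at 20 h, 25 to 44 in both and 145 to 159 for 20 h against 8 h (61, 109, 55 and 158 with all arrays). With only the groups compared in the fit the calls in both were 32, and with only genes above 3.9 in it they were 86; the cause was not tested. Deviations of same-numbered arrays correlated between -0.318 and 0.111. With 3 arrays per group, these values cannot decide whether replicate numbers pair the samples. With replicate number as a blocking factor (replicate block) the calls were 43, 109, 38 and 157. Counting only bases before the start, the shares of promoters with the E2F word TTTGGCGC among genes lower at 8 h and with the YY1 motif in both directions became 0.0%, from 1 promoter each. RPS28 at 8 h became 0.20 with its probe sets averaged, and TNPO2 at 20 h ran from -0.0915 to 0.0156 with 1 array left out, the last without control replicate 3. Of the other values of single genes under alternatives, 3048 kept their side of the threshold, 221 lost and 87 gained a call.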

Other observations

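The rule was also applied to probe sets that entered no gene test. Of 27904 probe sets outside the gene table, 7186 had a mean above 3.9, and of these 337 were higher at 8 h and lower at 20 h while 101 had the opposite course. Of 2155 probe sets with several symbols, 1111 were above 3.9, and 10 met the rule in each direction. Thus the unnamed probe sets lay mostly in the first direction, whereas the named genes lay slightly more often in the second (73 and 86). What the unnamed probe sets measure was not analysed here.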
